A study of Mus musculus with 12 samples.

Results

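Iron-responsive element mRNAs and other iron genes were followed in polysomal and sub-polysomal RNA of mouse 4T1 cells. The 8 genes were chosen by name, as the rows of the count table with the symbols Fth1, Ftl1, Tfrc, Slc11a2, Ireb2, Aco1, Hmox1 and Ncoa4, out of 55376 genes listed. All 8 passed the filter on low counts, at least 1 CPM (a count scaled to the size of its library) in 3 or more libraries, which 12224 genes passed. 4T1 is a mouse mammary gland cancer cell line. The cells had been stably transfected with the empty pBICEP-CMV-2 vector (mock) or with the full-length Mettl7a1 cDNA, FLAG-tagged and driven by the CMV promoter (METTL7A1), and selected with G418. Whether each was a pool or 1 clone is not stated in the sources used here. Both lines had received cycloheximide, which holds ribosomes on the mRNA, at 0.1 mg/ml over 5 min, and their extracts were spun through sucrose gradients. The sub-polysomal pool joined fractions 3 to 7 (free subunits and monosomes), the polysomal pool fractions 8 to 11, with 3 libraries in each of the 4 groups. Mock replicates are lettered A, B and C, and METTL7A1 replicates D, E and F, so that any other difference between the lines and the transfected gene cannot be told apart. The study describes its gradients of these cells as run on biological triplicates, but no source used here says how the replicate letters relate to cultures. The p-values measure the spread between these libraries, part of which may be technical.

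Cells hold their iron in balance largely by controlling mRNAs. Iron regulatory proteins bind a short stem-loop, the iron-responsive element (IRE). When iron is scarce, a bound IRE in the 5′ UTR keeps ribosomes from starting on the mRNA, as in both ferritin mRNAs, and bound IREs in the 3′ UTR protect the mRNA from decay, as in the transferrin receptor mRNA. When iron is plentiful, the IREs are released, ferritin is made and the receptor mRNA is degraded. The iron status of the cells is not given in the sources used here.

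Total counts per library lay between 1817520 and 5738989 in mock sub-polysomal, 5966935 and 6966156 in mock polysomal, 3670942 and 5171156 in METTL7A1 sub-polysomal and 5358491 and 6890725 in METTL7A1 polysomal RNA. The transfected gene Mettl7a1 had 4 to 24 counts in mock and 989 to 2436 counts in METTL7A1 libraries. Mitochondrial transcripts took a larger share of the counts in the sub-polysomal libraries (4.37% to 8.49%) than in the polysomal ones (0.684% to 2.14%). All 5 epithelial markers (Krt8, Krt18, Krt14, Epcam, Cdh1) were tested, with a summed level of 1841 to 2734 CPM in mock and 1870 to 4076 CPM in METTL7A1 libraries. Of the 5 erythroid markers 4 had 0 counts in all libraries, and their summed level reached at most 0.337 CPM. The 4 macrophage markers summed to 5.05 to 11.3 CPM in mock and 11.2 to 23.6 CPM in METTL7A1 libraries. Of these only Cd68 (4.64 to 22.3 CPM) passed the filter on low counts, and it made up most of the sum. Csf1r reached at most 1.33 CPM and Ptprc at most 0.137 CPM, and Adgre1 had 0 counts. The 4 fibroblast markers summed to 0.987 to 6.01 CPM and the 3 endothelial ones to at most 0.822 CPM. The part of these cells in the results was not tested.

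To show which of the mRNAs carry an IRE, the UTRs of the GENCODE M21 transcripts (GRCm38) were searched on the strand of the transcript for a C, 5 bases, the loop CAGTGN and 5 bases that pair with the first 5, G with U allowed. Such a site was found in the 5′ UTR of Fth1 and Ftl1 and 4 times in the 3′ UTR of Tfrc, and with 4 of 5 pairs in a 3′ UTR of Slc11a2. No site with at least 4 pairs was found in the UTRs of Ireb2, Aco1, Hmox1 or Ncoa4, which says only that these letters are not there. Sites with another loop were not searched for in any gene, Tfrc included, and the lower stem was not scored. The sites are printed 5′ to 3′ as DNA, with the loop in capitals and 6 bases of the lower stem on either side. Slc40a1 (ferroportin, the iron exporter), which has a site in the 5′ UTR but is not among the 8 genes, is shown for comparison with ferritin.
Fth1, 5′ UTR, chr19:9982732-9982760, plus strand: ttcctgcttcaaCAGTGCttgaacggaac
Ftl1, 5′ UTR, chr7:45459779-45459807, minus strand: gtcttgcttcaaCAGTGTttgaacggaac
Slc40a1, 5′ UTR, chr1:45925465-45925493, minus strand: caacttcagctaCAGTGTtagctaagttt
Tfrc, 3′ UTR, chr16:32631219-32631247, plus strand: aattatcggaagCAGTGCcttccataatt
Tfrc, 3′ UTR, chr16:32631598-32631626, plus strand: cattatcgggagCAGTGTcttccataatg
Tfrc, 3′ UTR, chr16:32631663-32631691, plus strand: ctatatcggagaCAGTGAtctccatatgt
Tfrc, 3′ UTR, chr16:32631710-32631738, plus strand: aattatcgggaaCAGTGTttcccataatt
Slc11a2, 3′ UTR, chr15:100395153-100395181, minus strand: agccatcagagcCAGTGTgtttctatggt

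With 5 of 5 pairs, a 5′ UTR site was present in 16 of 10705 tested genes with a 5′ UTR (0.149%, 1 transcript per gene), and a 3′ UTR site in 78 of 10758 tested genes with a 3′ UTR (0.725%). Tfrc was the only tested gene with 2 or more 3′ UTR sites. In the ferritin mRNAs the site lay 132 (Fth1) and 170 bases (Ftl1) before the start codon. The Tfrc sites lay between 889 and 1380 bases after the coding sequence, and that of Slc11a2 38 bases after it, in the transcript Slc11a2-205. Slc11a2 has other 3′ ends without this site, and the counts per gene do not separate them.

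**Figure D1:**
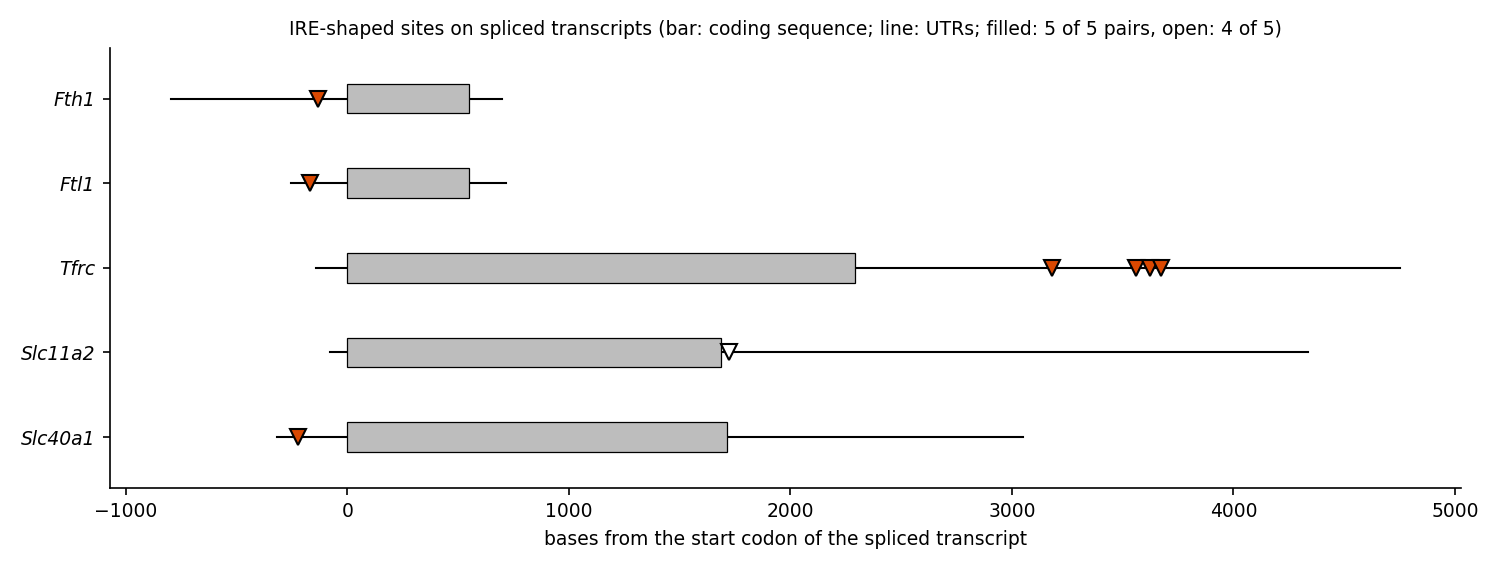
IRE-shaped sites on spliced transcripts, with the x axis in bases from the start codon, grey bars for the coding sequence and lines for the UTRs; triangles mark the sites, filled for 5 of 5 pairs and open for 4 of 5. The ferritin sites stand 132 and 170 bases before the start codon, whereas the 4 Tfrc sites stand far down the 3′ UTR.

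The comparison of the pools asked which iron mRNAs were found with few or no ribosomes and which with many. Both ferritin mRNAs were among the mRNAs with the lowest polysomal share in the cells, in both genotypes. Fth1 encodes the ferritin heavy chain, which oxidizes iron as it is stored, and Ftl1 the light chain. Since each library was scaled to its own total, a ratio between the pools is relative to that of the other mRNAs, and fewer mRNA molecules in a pool cannot be told apart from more of all others.

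Fth1 (chromosome 19, 9980598 to 9985098 of GRCm38) stood at 9461, 12420 and 11291 CPM in mock sub-polysomal replicates A, B and C. The same replicates had 484, 919 and 1049 CPM in polysomal RNA. In METTL7A1 cells its level was 6305, 9436 and 14411 CPM in sub-polysomal replicates D, E and F, and 847, 916 and 937 CPM in polysomal RNA. Every sub-polysomal library thus lay above every polysomal library. The log2 change of polysomal against sub-polysomal RNA was -3.76 in mock (standard error 0.31, 95% confidence interval -4.40 to -3.11, adjusted p = 1.39e-07), a level 13.5-fold lower. In METTL7A1 cells it was -3.48 (standard error 0.30, 95% confidence interval -4.12 to -2.84, adjusted p = 6.91e-08), 11.2-fold lower. By level per length (CPM per kilobase of exon), Fth1 ranked number 10 of the 12224 tested genes in mock sub-polysomal RNA and number 117 in mock polysomal RNA.

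Ftl1 (chromosome 7, 45457944 to 45459884) followed the same course at a lower level. It stood at 1507, 2679 and 2523 CPM in mock sub-polysomal replicates A, B and C and at 121, 183 and 199 CPM in their polysomal RNA. The METTL7A1 replicates D, E and F had 2557, 2899 and 5114 CPM in sub-polysomal and 201.2, 231 and 209 CPM in polysomal RNA. Here too the pools did not overlap. The log2 change was -3.74 in mock (standard error 0.29, adjusted p = 7.76e-08; 13.3-fold lower) and -4.04 in METTL7A1 cells (standard error 0.29, adjusted p = 2.50e-08; 16.5-fold lower). Counted from the lowest log2 change of 12224 genes, Fth1 had rank 73 and Ftl1 rank 77 in mock cells, and rank 165 and rank 87 in METTL7A1 cells. Both ferritins met the limits of the study's call for total RNA (adjusted p below 0.01 and a log2 change beyond 1.5), as did 6.86% of all tested genes on the lower side in mock and 10.3% in METTL7A1 cells. Over all alternative settings the log2 change of Fth1 lay between -3.96 and -3.34 in mock and between -3.70 and -3.05 in METTL7A1 cells.

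**Figure D2:**
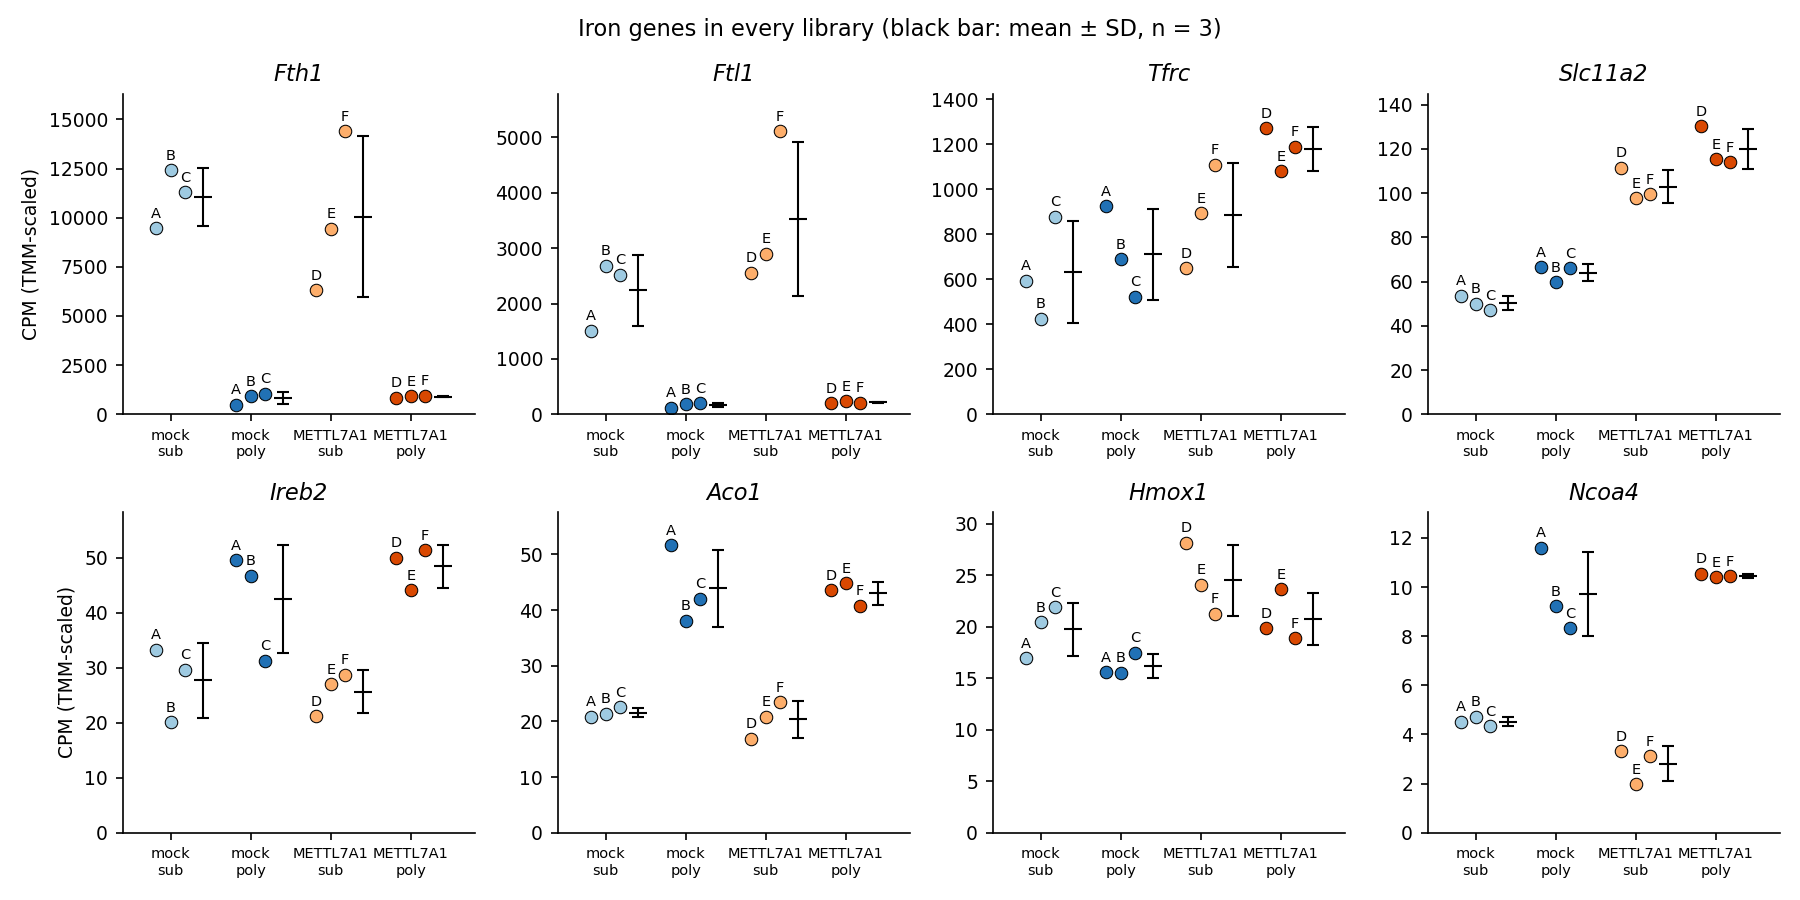
Level of each of the 8 genes in every library, in CPM scaled by TMM factors on a linear axis from 0; points are libraries with their replicate letters, and black bars the mean ± SD (n = 3). Fth1 and Ftl1 stand high in all 6 sub-polysomal libraries and low in all 6 polysomal ones, while Slc11a2 is higher in every METTL7A1 library than in any mock library.

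Ferritin mRNAs are short. Their coding sequences have 549 (Fth1) and 552 bases (Ftl1), and across 10842 tested genes with a coding transcript the polysomal to sub-polysomal log2 change went with coding length (Spearman's rho 0.55 in mock and 0.54 in METTL7A1 cells, across genes of the same libraries). The median log2 change of the 1424 genes with a coding length of 400 to 700 bases was -0.46 in mock and -0.61 in METTL7A1 cells. Within these genes, a range chosen after the values were seen, Fth1 had rank 2 and Ftl1 rank 3 from the lowest in mock cells, and rank 5 and rank 2 in METTL7A1 cells. The ferritins therefore lay far below most mRNAs of like coding length.

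**Figure D3:**
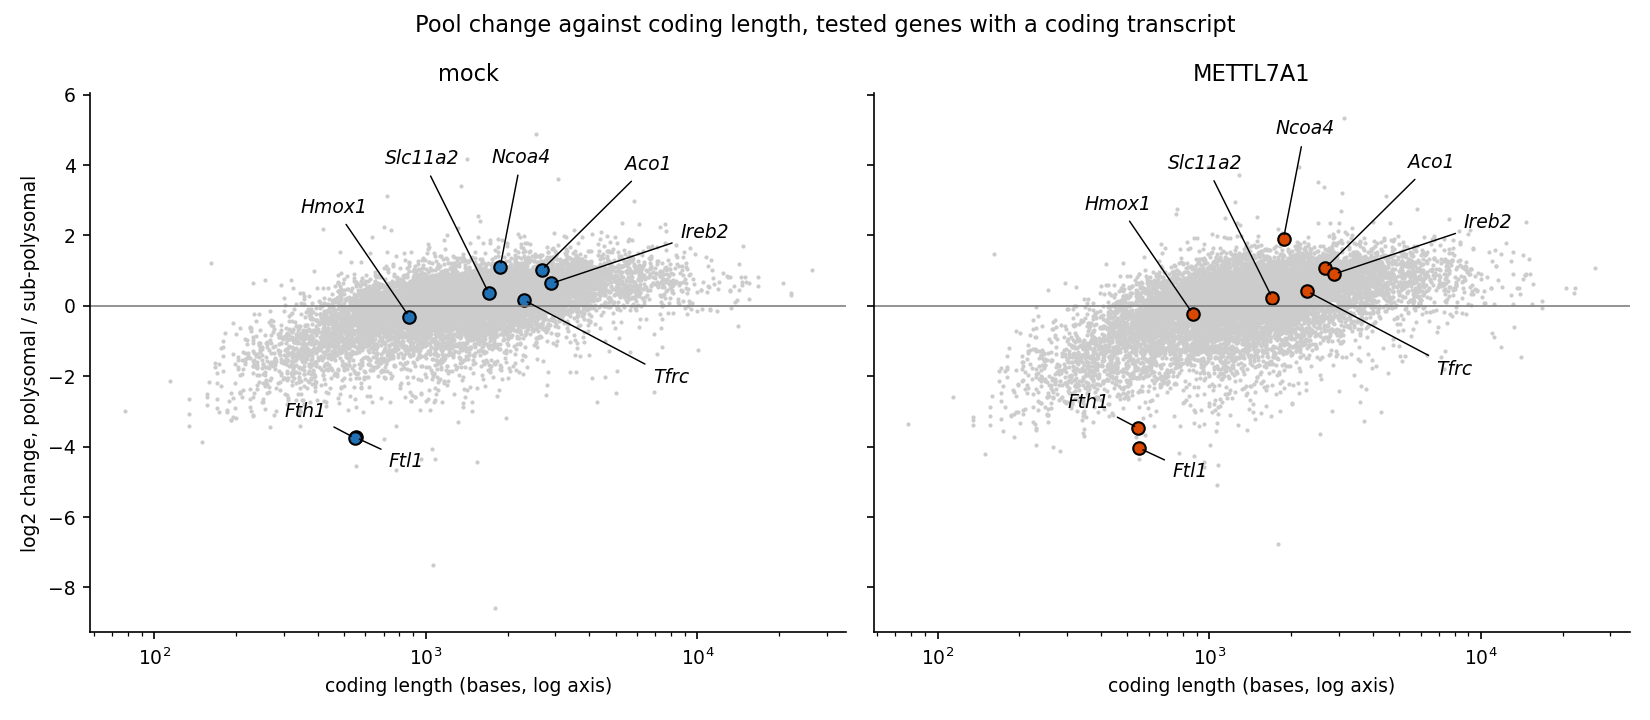
Log2 change of polysomal against sub-polysomal RNA (y axis) against coding length in bases (x axis, log scale) in mock (left) and METTL7A1 cells (right), with 10842 genes in grey and the 8 iron genes in colour. Fth1 and Ftl1 lie at the lower edge of the cloud at about their length, and the other 6 lie within it or at its upper side.

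The pool change of Slc40a1, with a 5′ UTR site as well, was nearer to 0 than those of the ferritins. Slc40a1 was near the detection limit, with means of 0.704 to 1.87 CPM in the 4 groups, and its log2 change was -0.80 in mock (standard error 0.51, adjusted p = 0.210) and -1.44 in METTL7A1 cells (standard error 0.52, adjusted p = 0.0241). The 16 genes with a 5′ UTR site had a median log2 change of 0.17 in mock and 0.37 in METTL7A1 cells. The median over all tested genes was 0.05 and 0.06. These 16 include both ferritins and the ferritin copy Ftl1-ps1 (mean 0.515 CPM). The copy passed the filter on low counts through its sub-polysomal libraries, so the medians depend in part on a gene near the detection limit.

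Of the 2 iron uptake genes among the 8, Slc11a2 was higher in polysomal than in sub-polysomal RNA of mock cells, and Tfrc did not pass the test between the pools in either genotype. Tfrc (chromosome 16, 32608920 to 32632794) encodes the transferrin receptor, which brings transferrin-bound iron into the cell. It stood at 594, 425 and 877 CPM in mock sub-polysomal replicates A, B and C and at 923, 688 and 522 CPM in their polysomal RNA. METTL7A1 replicates D, E and F had 649, 894 and 1108.5 CPM in sub-polysomal and 1271, 1078 and 1187 CPM in polysomal RNA. The pools overlapped in both genotypes, and the log2 changes of 0.17 (95% confidence interval -0.35 to 0.69) in mock and 0.42 (95% confidence interval -0.10 to 0.93) in METTL7A1 cells did not pass the test. Mock replicate C had the highest Tfrc level in sub-polysomal and the lowest in polysomal RNA, and without it the log2 change was 0.66 (adjusted p = 0.0361).

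Slc11a2 (chromosome 15, 100387898 to 100423055) encodes DMT1, the transporter that moves ferrous iron across membranes, out of endosomes among others. Its level was 53.6, 50.04 and 47.2 CPM in mock sub-polysomal replicates A, B and C, and 66.4, 59.7 and 66.0 CPM in polysomal RNA. The METTL7A1 replicates D, E and F had 111, 97.8 and 99.5 CPM in sub-polysomal and 130.1, 115 and 114 CPM in polysomal RNA. Polysomal libraries lay above sub-polysomal ones in both genotypes, by small amounts. The log2 change was 0.36 in mock (standard error 0.13, adjusted p = 0.0320) and 0.22 in METTL7A1 cells (standard error 0.12, adjusted p = 0.130). The mock call was lost in 8 alternatives that kept the threshold, among them leaving out any of the 3 mock replicates (adjusted p = 0.0704 without A, 0.0657 without B and 0.217 without C).

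The mRNAs of both iron regulatory proteins were higher in polysomal RNA. Their coding sequences have 2670 (Aco1) and 2892 bases (Ireb2), and over all genes the pool change rose with coding length. Any part of length in their pool changes was not tested. Aco1 (chromosome 4, 40143081 to 40198338) encodes IRP1, which serves as cytosolic aconitase when it holds an iron-sulfur cluster and binds IREs when it does not. It stood at 20.9, 21.4 and 22.5 CPM in mock sub-polysomal replicates A, B and C and at 51.6, 38.1 and 42.1 CPM in polysomal RNA. The METTL7A1 replicates D, E and F had 16.9, 20.8 and 23.4 CPM in sub-polysomal and 43.6, 44.8 and 40.8 CPM in polysomal RNA. The pools did not overlap, and the log2 change was 1.01 in mock (standard error 0.16, adjusted p = 4.84e-05) and 1.07 in METTL7A1 cells (standard error 0.16, adjusted p = 1.29e-05).

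Ireb2 (chromosome 9, 54863789 to 54912530) encodes IRP2, which is degraded when iron is plentiful. Its level was 33.3, 20.1 and 29.6 CPM in mock sub-polysomal replicates A, B and C and 49.6, 46.7 and 31.3 CPM in polysomal RNA, so that the polysomal library of replicate C fell within the sub-polysomal range. In METTL7A1 replicates D, E and F it was 21.2, 27.0 and 28.7 CPM in sub-polysomal and 50.002, 44.0 and 51.4 CPM in polysomal RNA, with no overlap. The log2 change was 0.63 in mock (standard error 0.20, adjusted p = 0.0128) and 0.91 in METTL7A1 cells (standard error 0.19, adjusted p = 0.000569). The mock call was lost without replicate A (0.58, adjusted p = 0.0540) and without replicate B (0.38, adjusted p = 0.195).

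Ncoa4 (chromosome 14, 32159865 to 32179855) encodes the receptor that takes ferritin to lysosomes, where its iron is released. This was the rarest of the 8 mRNAs, with 8 to 85 counts per library, and its coding sequence has 1878 bases. Mock replicates A, B and C had 4.51, 4.72 and 4.34 CPM in sub-polysomal and 11.6, 9.21 and 8.31 CPM in polysomal RNA. The METTL7A1 replicates D, E and F had 3.32, 1.99 and 3.11 CPM in sub-polysomal and 10.5, 10.4 and 10.4 CPM in polysomal RNA. All polysomal libraries lay above all sub-polysomal ones. The log2 change was 1.10 in mock (standard error 0.23, adjusted p = 0.000822) and 1.91 in METTL7A1 cells (standard error 0.25, adjusted p = 3.39e-06; rank 88 from the highest of 12224 genes).

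Hmox1 (chromosome 8, 75093621 to 75100589) encodes heme oxygenase 1, which releases iron from heme. It stood at 16.9, 20.5 and 21.9 CPM in mock sub-polysomal replicates A, B and C and at 15.6, 15.5 and 17.5 CPM in polysomal RNA. The METTL7A1 replicates D, E and F had 28.2, 24.1 and 21.3 CPM in sub-polysomal and 19.9, 23.6 and 18.9 CPM in polysomal RNA. The pools overlapped in both genotypes, and the log2 changes of -0.32 (95% confidence interval -0.66 to 0.03) and -0.22 (95% confidence interval -0.55 to 0.10) did not pass the test. Their sign was the opposite when TMM factors were computed within each pool, a scaling that moved the median of all genes from 0.05 to 0.48 in mock and from 0.06 to 0.49 in METTL7A1 cells.

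In mock cells 4 of the 8 genes (Slc11a2, Ireb2, Aco1, Ncoa4) were thus higher and 2 (Fth1, Ftl1) lower in polysomal RNA, where 23.3% and 23.7% of all tested genes were. In METTL7A1 cells 3 were higher (Ireb2, Aco1, Ncoa4) and 2 lower (Fth1, Ftl1), where 30% and 29.3% of all tested genes were. The 2 comparisons rest on separate libraries but share the estimate of the spread, which came from a joint fit.

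**Figure D4:**
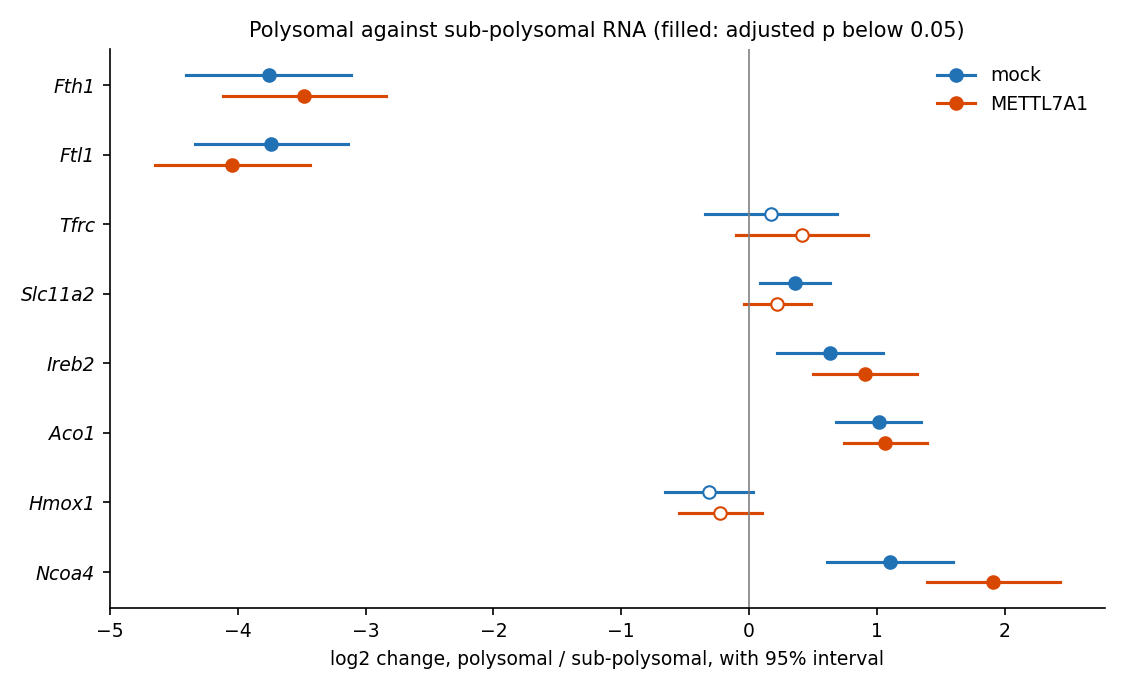
Log2 change of polysomal against sub-polysomal RNA (x axis) of the 8 genes in mock (blue) and METTL7A1 cells (orange), with 95% confidence intervals; filled points have an adjusted p below 0.05. Both ferritins stand between -3.48 and -4.04, Aco1, Ireb2 and Ncoa4 stand above 0 in both genotypes, and the intervals of the genotypes overlap for each gene.

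METTL7A1 cells were compared with mock cells within each pool to ask which iron mRNAs differed in level. Slc11a2 mRNA was about doubled in METTL7A1 cells in both pools, and Tfrc was higher in polysomal RNA at the edge of the threshold. For Slc11a2 the log2 change was 0.90 in polysomal (standard error 0.12, adjusted p = 4.72e-05; 1.87-fold) and 1.04 in sub-polysomal RNA (standard error 0.13, adjusted p = 1.94e-05; 2.06-fold), and the METTL7A1 libraries did not overlap the mock libraries in either pool. Over the alternative settings, the change lay between 0.84 and 1.01 in polysomal and between 0.98 and 1.30 in sub-polysomal RNA. For Tfrc the log2 change was 0.73 in polysomal RNA (standard error 0.25, adjusted p = 0.0469), with all METTL7A1 above all mock libraries, and 0.48 in sub-polysomal RNA (standard error 0.25, adjusted p = 0.145), where the libraries overlapped. The polysomal Tfrc call was lost in 8 alternatives that kept the threshold, 5 of which left out 1 replicate (B, C, D, E or F, with adjusted p between 0.0889 and 0.125).

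The ferritin mRNAs did not pass the test between genotypes. The log2 change of Fth1 was 0.14 in polysomal (95% confidence interval -0.44 to 0.72) and -0.14 in sub-polysomal RNA (95% confidence interval -0.72 to 0.44). That of Ftl1 was 0.35 in polysomal (95% confidence interval -0.19 to 0.89) and 0.66 in sub-polysomal RNA (95% confidence interval 0.12 to 1.19, adjusted p = 0.0587), where DESeq2 gave an adjusted p of 0.0467. Replicate F had the highest sub-polysomal level of both ferritins among the METTL7A1 libraries, and D the lowest.

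The remaining 4 genes did not pass it either. Aco1 and Ireb2 had log2 changes between -0.08 and 0.19 in the 2 pools. Hmox1 had 0.36 in polysomal (adjusted p = 0.105) and 0.27 in sub-polysomal RNA (adjusted p = 0.234). Ncoa4 had 0.11 in polysomal (adjusted p = 0.723) and -0.70 in sub-polysomal RNA (95% confidence interval -1.34 to -0.05, adjusted p = 0.0918), where all METTL7A1 libraries lay below all mock libraries at 8 to 22 counts. In all, 2 of the 8 genes were higher in METTL7A1 polysomal RNA (9.69% of all tested genes) and 0 lower (8.28%). In sub-polysomal RNA 1 was higher (16.8%) and 0 lower (14.5%). DESeq2 called 2 higher in each pool and 0 lower, and at an unadjusted p of edgeR under 0.05 there were 0 lower in polysomal RNA and 1, Ncoa4, in sub-polysomal RNA.

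**Figure D5:**
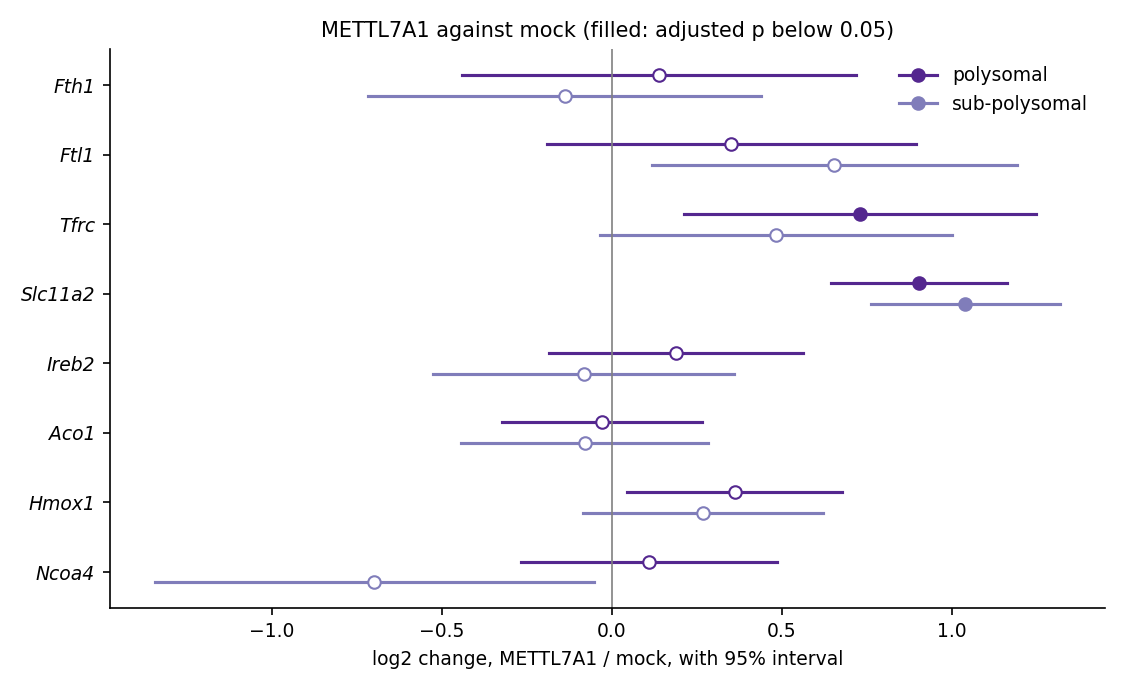
Log2 change from mock to METTL7A1 cells (x axis) of the 8 genes in polysomal (dark) and sub-polysomal RNA (light), with 95% confidence intervals; filled points have an adjusted p below 0.05. Slc11a2 is filled in both pools at 0.90 and 1.04, and Tfrc in the polysomal pool at 0.73.

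The shift to polysomes is the pool change in METTL7A1 cells minus that in mock cells. It asks whether an mRNA was divided differently between the pools in METTL7A1 than in mock cells, irrespective of its level. By edgeR's quasi-likelihood test 0 of the 8 genes and 0 of all 12224 tested genes (0%) passed an adjusted p of 0.05. Without adjustment, 1911 genes had a p below 0.05, 1 of them among the 8, and DESeq2 called 366 genes, 0 of them among the 8. The gene was Ncoa4, with a log2 shift of 0.81 (95% confidence interval 0.06 to 1.56, adjusted p = 0.282). For the ferritins the interval of the shift ran from -0.54 to 1.10 (Fth1, 0.28) and from -1.06 to 0.46 (Ftl1, -0.30). The narrowest interval was that of Slc11a2, from -0.51 to 0.24 (shift -0.14).

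Other genes of iron metabolism and a list of redox genes were read as lists, of which 77 of 92 genes were tested. Their counts stand against the shares of all tested genes given above, 23.3% higher and 23.7% lower between the mock pools, and 30% and 29.3% between the METTL7A1 pools. Genes for iron-sulfur cluster assembly were mostly lower in polysomal RNA. Of 21 tested, mock cells had 12 lower and 2 higher, METTL7A1 cells 14 and 1, with a median log2 change of -0.65 and -0.79 (0.05 and 0.06 over all tested genes). With TMM factors within each pool, 9 were lower and 6 higher in mock, and 11 and 4 in METTL7A1 cells. Over all genes the pool change went with coding length (Spearman's rho 0.55 in mock and 0.54 in METTL7A1 cells). Genes with a coding length of 400 to 700 bases had a median of -0.46 in mock and -0.61 in METTL7A1 cells. The coding lengths of this list were not compared, and any part of length in its counts was not tested. Bola3, which helps hand clusters to mitochondrial enzymes, changed by -2.67 in mock and -2.70 in METTL7A1 cells (adjusted p = 2.97e-07 and 6.53e-08). Isca1, a late-acting carrier of mitochondrial clusters, changed by -2.21 and -2.22, and its partner Isca2 by -1.91 and -2.27. Iscu, the scaffold on which clusters are built, changed by -1.36 in mock (adjusted p = 1.33e-05), and the glutaredoxin Glrx5 by -1.53 in METTL7A1 cells (adjusted p = 2.89e-06).

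Among 6 tested genes that control the iron regulatory proteins, 3 were higher and 1 lower in polysomal RNA of each genotype, the lower count being under the share of all tested genes. The lower gene was Ciao2b, of the cytosolic complex that inserts iron-sulfur clusters, with -2.12 in mock and -2.52 in METTL7A1 cells, while its partner in the complex, Ciao1, had 0.82 and 0.69. Of 4 tested other IRE mRNAs 1 was higher, Cdc42bpa, with 1.14 and 1.20, and 1 lower in each genotype, Slc40a1 in METTL7A1 cells. This list was drawn up by name, and the search above found no site with at least 4 pairs in the UTRs of Cdc42bpa. Of 13 tested genes for iron uptake, export and chaperones, mock cells had 2 higher and 3 lower, and METTL7A1 cells 4 higher and 2 lower, near or under the shares of all tested genes (23.3% and 23.7% in mock, 30% and 29.3% in METTL7A1 cells). The mitochondrial iron importers Slc25a28 (-0.83 and -1.08) and Slc25a37 (-0.79 and -0.99) were lower in both.

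For heme synthesis and transport, mock cells had 2 of 14 higher and 3 lower, METTL7A1 cells 3 of each, all under the shares of all tested genes (23.3% and 23.7% in mock, 30% and 29.3% in METTL7A1 cells). They included the heme transporter Slc48a1 (-0.89 and -1.26) and, in the other direction, Cpox of the heme pathway (0.49 and 1.14). Genes of heme breakdown besides Hmox1 were higher in 2 (mock) and 3 (METTL7A1) of 5, such as biliverdin reductase A, Blvra (0.56 and 0.71). The list for the redox factor Nrf2 holds its targets, of which Hmox1 is another, and also Keap1 and Nfe2l2, the gene of Nrf2 itself. It was split, mock cells having 6 higher and 4 lower of 14, METTL7A1 cells 5 and 3. Thioredoxin reductase Txnrd1 was higher in both (1.00 and 0.97).

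Between the genotypes, 9.69% of all tested genes were higher and 8.28% lower in METTL7A1 polysomal RNA, and 16.8% and 14.5% in sub-polysomal RNA. Of the lists, 4 of 13 uptake, export and chaperone genes were higher in METTL7A1 polysomal and 5 in sub-polysomal RNA, with 1 lower in the latter. Lcn2, the secreted lipocalin that binds siderophores, had log2 changes of 1.04 (adjusted p = 0.000327) and 0.76 (adjusted p = 0.00287). Of the cluster assembly genes polysomal RNA had 3 of 21 higher and 1 lower, sub-polysomal RNA 6 and 2. Cisd1, an outer mitochondrial membrane protein with an iron-sulfur cluster, had 0.72 and 0.94, and Isca1 had -0.86 and -0.85. Of the Nrf2 list polysomal RNA had 1 of 14 higher and 1 lower, sub-polysomal RNA 1 and 2, near or under those shares. The higher one was Osgin1, with 1.12 (adjusted p = 9.60e-05) and 1.74 (adjusted p = 1.04e-06). For heme synthesis and transport polysomal RNA had 4 of 14 higher and 1 lower, sub-polysomal RNA Slc48a1 higher (0.91) and Cpox lower (-0.67). Por, which passes electrons to heme oxygenase, was the 1 of 5 heme breakdown genes that was higher in each pool (0.78 in both). Of the 4 other IRE mRNAs 1 was higher and 0 lower in polysomal RNA. In sub-polysomal RNA edgeR and DESeq2 called 0 of them, with 1 at an unadjusted p under 0.05. Of the 6 genes that control the iron regulatory proteins 0 passed in either pool by edgeR or DESeq2, and 0 had an unadjusted edgeR p under 0.05.

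For the shift, edgeR called 0 of the 77 list genes, with 13 at an unadjusted p under 0.05. Of all 12224 tested genes it called 0, with 1911 at an unadjusted p under 0.05. DESeq2 called 4 of the 77 list genes and 366 of all 12224 tested genes. Among the 4 were the metalloreductase gene Steap1 towards polysomes (log2 shift 0.85, adjusted p = 0.0411) and Nubp2, of cluster assembly, away from polysomes (-0.62, adjusted p = 0.0420).

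The genes most alike in log2 CPM over the 12 libraries, among 9456 genes with a mean of at least 5 CPM, were Bola3, Rab4a and Golga7 for Fth1 (Pearson's r between 0.992 and 0.996) and the ribosomal protein genes Rpl12 and Rps2 with Pkig for Ftl1 (r between 0.995 and 0.996). Fth1 and Ftl1 had r = 0.98 with each other. Slc11a2 was most like Cd82, Rgs16 and Mmp9 (r between 0.984 and 0.990), and Tfrc most like Itgav, Cxadr and Lamp2 (r between 0.947 and 0.963). These are descriptions over libraries that fall into 4 groups, so that r mostly reflects the pool and the genotype.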

How the data were processed

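RNA-Seq of 12 libraries, 3 per group, was analysed. The deposited values are raw gene counts. The paper gives its RNA-Seq methods for the total RNA libraries of these lines, which were rRNA-depleted and stranded. Their paired reads were trimmed with BBDuk and aligned to mm10 with STAR. Counting was done with featureCounts on the Ensembl annotation (GRCm38, release 97). For the libraries used here, the submitters' processing notes name STAR 2.5.3a and featureCounts. Whether the remaining steps were the same was not checked. The strand setting and the handling of reads that match several genes are not given in the sources used here. The 12224 genes that reached 1 CPM in 3 or more libraries were scaled by TMM. All 12 libraries entered 1 fit by edgeR 4.0.16 (R 4.3.3) with a mean for each group, and contrasts were quasi-likelihood tests with Benjamini-Hochberg adjustment over all tested genes. A gene was called changed at an adjusted p below 0.05. The members, the 7 lists and the tests were chosen with earlier results of these data known. Named were all 8 genes, of each list at most the 4 changed genes with the largest log2 change and a mean of at least 5 CPM (Slc40a1 besides, for its site, and pairs across genotypes; Steap1 and Nubp2 after their values were seen; some genes and a sequence are not reported here), the 3 genes most alike to each gene, and ferritin copies. Vti1b was also named after its values were seen. IRE sites and coding lengths came from GENCODE M21 on the same build. The start and end of 7 of the 8 genes were the same there. The test was run on simulated counts first. Alternatives were DESeq2 1.42.0, limma-voom (limma 3.58.1), RLE factors, TMM within each pool, Actb scaling, other filters, a stricter threshold, only the compared groups, a replicate block and leaving out each replicate. At these depths 3 counts equal 0.431 to 1.65 CPM, a limit that covers counting error only.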

Additional observations from a re-analysis of the deposited data

How the results depend on the processing

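Of 620 values of the 8 genes under alternative settings, 552 kept their direction and their side of the threshold, 15 came to pass it, 28 no longer passed and 25 had the opposite sign. Both ferritins stayed lower in polysomal RNA, past the threshold, in every alternative. Between genotypes in sub-polysomal RNA, where 1 of the 8 genes was called, the number was 2 with DESeq2, 4 with Actb scaling, 3 with no filter beyond 1 count, 0 with the stricter threshold (adjusted p below 0.01 and log2 change beyond 1.5) and 1 to 2 without single replicates. In polysomal RNA, where 2 were called, it was 1 with RLE factors, 1 with TMM within each pool, 1 with at least 10 counts in every library, 0 with the stricter threshold and 1 to 2 without single replicates. The stricter threshold called 2 genes between the pools in mock and 3 in METTL7A1 cells. Actb scaling moved the median of all genes to -0.18 between the METTL7A1 pools, 0.26 between genotypes in sub-polysomal RNA and -0.17 for the shift. With it the sign was opposite for Slc11a2 between the METTL7A1 pools (-0.018), for Aco1 (0.076) between genotypes in polysomal RNA, for Fth1 (0.11), Ireb2 (0.16) and Aco1 (0.18) in sub-polysomal RNA, and for the shifts of Aco1 (-0.10) and Hmox1 (-0.095). TMM within each pool gave Hmox1 0.11 between the mock and 0.21 between the METTL7A1 pools. Without single replicates, Tfrc ranged from -0.15 to 0.66 between the mock pools. Between genotypes in polysomal RNA, Fth1 ranged from -0.11 to 0.36 and Aco1 from -0.12 to 0.12. In sub-polysomal RNA, Fth1 ranged from -0.49 to 0.11, Ireb2 from -0.27 to 0.027 and Aco1 from -0.19 to 0.028. The shifts ranged from -0.064 to 0.23 (Aco1), -0.25 to 0.55 (Tfrc), -0.027 to 0.23 (Hmox1) and -0.49 to 0.081 (Ftl1). The pools of a replicate letter were little alike in their deviations from the group means (r between -0.29 and 0.11). This does not show whether they came from the same gradient. With the letter as a replicate block, 6 of the 8 genes were called between the mock pools, 5 between the METTL7A1 pools and 0 for the shift, as without it. For the shift over all genes, where edgeR called 0, the count was 366 with DESeq2, 159 with no filter beyond 1 count and 104 without mock replicate A. TMM within each pool raised the share of higher genes among those called between the mock pools from 49.6% to 77.1%, and between the METTL7A1 pools from 50.6% to 71.7%. With Actb scaling that share was 33.6% between the METTL7A1 pools, and 83.1% (from 53.7%) between genotypes in sub-polysomal and 71.4% (from 53.9%) in polysomal RNA. The cause was not tested. The filter of at least 10 counts removed Ncoa4.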

Other observations

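The balance of the 2 ferritin chains in sub-polysomal RNA was looked at after the values were seen. The ratio of Ftl1 to Fth1, each per length, was 0.256, 0.347 and 0.360 in mock replicates A, B and C and 0.653, 0.495 and 0.571 in METTL7A1 replicates D, E and F. The genotypes did not overlap, with means of 0.321 ± 0.056 (SD, n = 3) and 0.573 ± 0.079 (SD, n = 3), a ratio of 1.78 between them. A two-sided exact permutation test gave p = 0.1, the smallest that 3 against 3 allows. In polysomal RNA the METTL7A1 ratio of 0.383 ± 0.023 (SD, n = 3) lay near the mock ratio of 0.342 ± 0.051 (SD, n = 3; exact permutation p = 0.3). Of 14 further rows whose symbols begin with Fth or Ftl, 9 had 0 counts in all libraries, and the others held at most 0.0282% of the count of Fth1 and 0.150% of that of Ftl1 in any library. How the counting treated reads that match a copy and its parent is not given in the sources used here, so these shares hold for the reads it assigned and do not measure how many reads could have come from the copies. With these rows added to their parent genes, the log2 of the ratio between genotypes remained 0.84.

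Slc11a2 lies on the same chromosome as the endogenous Mettl7a1 gene, with a gap of 59.2 kb between them. Within 250 kb of Mettl7a1, a window chosen after the values were seen, 7 genes were tested. Slc11a2 was the only one of them called between genotypes in sub-polysomal RNA. For that pool, the called shares over the whole set of tested genes were 16.8% (higher) and 14.5% (lower). The window was thus not rich in calls there. In polysomal RNA Dip2b was also higher in METTL7A1 cells (log2 change 0.61, adjusted p = 0.0292) and Pou6f1 lower (-1.19, adjusted p = 0.0282). Of all tested genes 9.69% were higher and 8.28% lower there. The other four, Atf1, Letmd1, Csrnp2 and Tfcp2, had log2 changes from -0.64 to 0.30 in polysomal RNA, none past the threshold. The transfected Mettl7a1 cDNA was carried on a vector, and any part of the position in the Slc11a2 level was not tested.

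Of the 16 tested genes with an IRE-shaped 5′ UTR site, Vti1b, a SNARE protein gene, was named after its values were seen. It followed the ferritins and the ferritin copy Ftl1-ps1 from the lowest pool change. Its log2 changes were -1.84 in mock and -1.81 in METTL7A1 cells at a mean of 142 CPM. The 16 genes had a median of 0.17 and 0.37, and reached up to 2.16 in mock cells (Serpina3g). The coding length of Vti1b was not compared, and whether its site binds an iron regulatory protein was not tested. Ftl1-ps1 itself had a mean of 0.515 CPM and at most 8 counts in any library. At that level and pool change it passed the filter on low counts through its sub-polysomal libraries. Its place in the order therefore carries no weight.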
